A study of Bos taurus with 15 samples.

Results

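The genes described here encode a stress-activated kinase cascade that ends in the transcription factors ATF2 and ATF7. The 10 members were taken by gene symbol from the filtered read count table of bovine blastocysts, which holds 10832 genes, and every member was present in it. They comprise 2 MAP kinase kinase kinases (MAP3K1 and MAP3K4), 3 MAP kinase kinases (MAP2K3, MAP2K4 and MAP2K7), 3 MAP kinases (MAPK8, MAPK9 and MAPK14) and 2 transcription factors (ATF2 and ATF7). RNA was sequenced from pools of in vitro produced Bos taurus blastocysts that had grown without supplement (control, Co), with freshly isolated oviductal extracellular vesicles (FeEV) or with vesicles that had been frozen and thawed (FoEV). Each treatment had 5 libraries, and all libraries came from blastocysts labelled as day 7. The vesicles (oEVs) are membrane-bound particles shed into the fluid of the oviduct, and they were obtained from slaughterhouse oviducts collected shortly after ovulation. A library is a pool of whole embryos that had been chosen for good RNA, so trophectoderm, inner cell mass and hypoblast were read together. In such bulk samples, fewer cells of a type and less RNA per cell cannot be told apart. The labels do not say which pools shared a culture run, and p-values therefore measure the spread between these pools.

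In a MAP kinase cascade, a MAP3K phosphorylates a MAP2K, which phosphorylates a MAPK, which in turn phosphorylates transcription factors and other substrates. MAP3K1, also called MEKK1, acts mainly through MAP2K4 and MAP2K7 on the JNK kinases MAPK8 and MAPK9, and MAP3K4 can feed both the JNK and the p38 arm. MAP2K3 is a dedicated activator of p38, MAP2K7 is dedicated to JNK, and MAP2K4 can serve both. ATF2 and its close relative ATF7 are leucine zipper factors phosphorylated by JNK and p38, and they bind DNA as dimers, often together with JUN. In the mammalian embryo these kinases are known for roles in stress responses, in cell death and in the formation of the blastocyst. All values below are messenger RNA levels, and the activity of such kinases is set largely by phosphorylation, which was not measured.

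The libraries held between 2136713 and 4058887 counted reads. Every FoEV library (3392613 to 4058887 reads) was deeper than every Co library (2571558 to 2977004 reads), and depth and treatment cannot be told apart by comparing raw counts. Levels are given as CPM, read counts divided by the library total and scaled by TMM, a correction that evens out library composition. Means are followed by the SD over the 5 libraries of a treatment, and fold changes by their standard error (SE) or 95% interval. The members had 36 to 484 reads per library, with the fewest for MAP2K7. Small nucleolar and small nuclear RNA genes took 0.266% to 0.576% of reads in the FoEV libraries and 0.145% to 0.308% in Co. With edgeR's quasi-likelihood test, 1 gene in all, or 0.00923% of those tested, had an adjusted p under 0.05 in FoEV vs. Co. In FeEV vs. Co and in FoEV vs. FeEV the count was 0 (0% of genes), although 449 and 923 genes had an unadjusted p under 0.05.

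In FoEV treatment vs. Co, the first kinase of the cascade, MAP3K1, and its terminal transcription factor, ATF2, had the lowest levels relative to control embryos. MAP3K1 stood at 78.2% and ATF2 at 73.3% of the control level. The kinases between them differed less from Co, and ATF7 lay on the other side, at 111% of the control level. Unadjusted p-values under 0.05 were found for 2 of the 10 members, both lower with FoEV. Among all genes tested, 6.88% had such a p-value in the lower direction and 15.1% in either direction. No member had an adjusted p under 0.05, and the smallest, shared by MAP3K1 and ATF2, was 0.118. Of the 10 members 7 were lower and 3 higher in FoEV, with a median log2 fold change of -0.06 against 0.01 over all genes. The study itself selected MAP3K1 and ATF2 from these libraries as lower in FoEV-treated embryos, so their direction is not independent evidence. The same holds for other genes named below, namely FOS, MEF2A, NANOG, TRIM32, FLRT3 and PTPDC1 as lower, KRT18 as higher and FOS also as lower in FeEV-treated embryos. With counts thinned to the smallest library the log2 fold changes of MAP3K1 and ATF2 were -0.38 and -0.46, and without rRNA, small nucleolar and small nuclear RNA genes -0.36 and -0.45, as against -0.36 and -0.45 in the full counts.

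**Figure D1:**
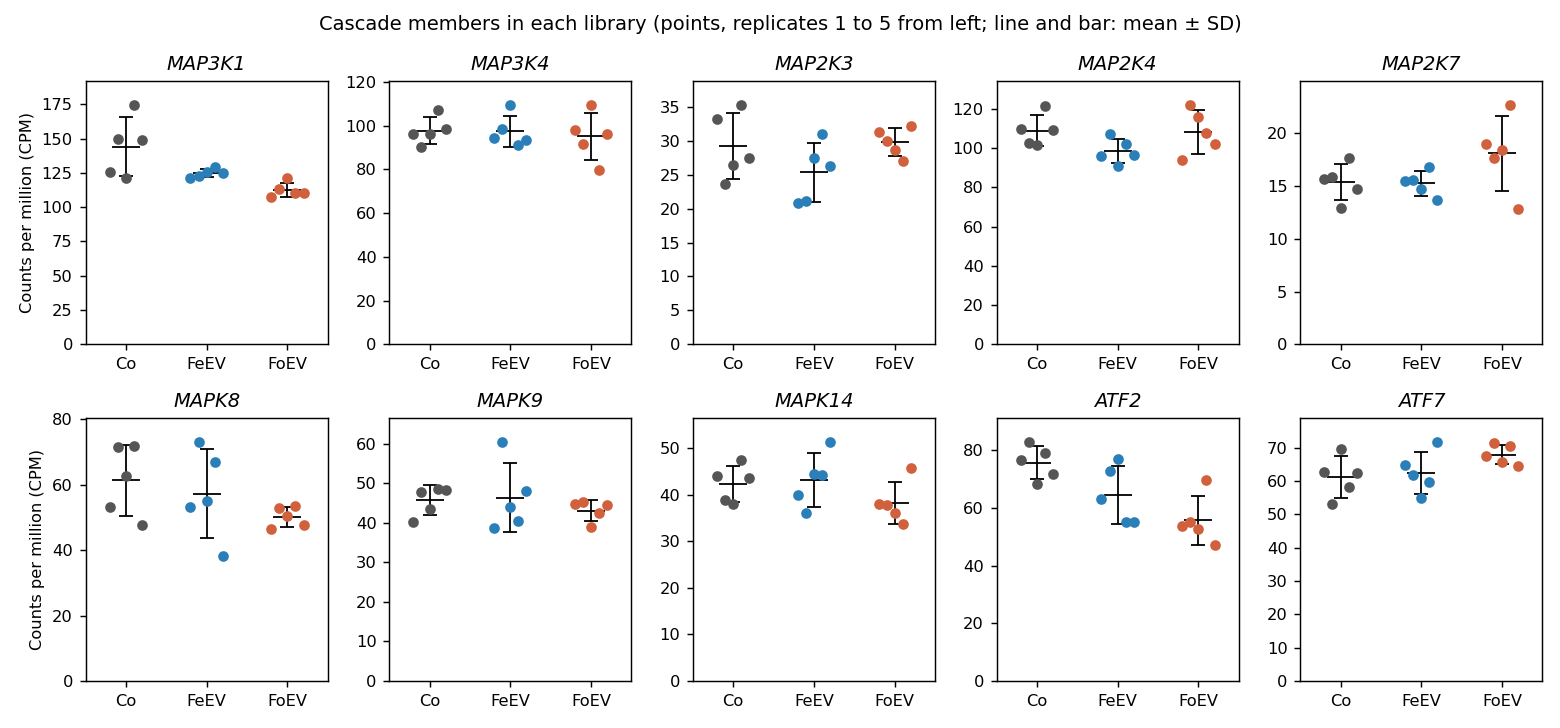
Level of each of the 10 members in each of the 15 libraries, in CPM after TMM scaling, with Co, FeEV and FoEV from left to right; points are libraries, and the line and bar are the mean and SD of 5. For MAP3K1 the highest FoEV library (121.2 CPM) sits just under the lowest Co library (121.3 CPM), and for ATF2 4 of the 5 FoEV libraries sit at or below 55.0 CPM while the lowest Co library lies at 68.4 CPM.

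MAP3K1 (gene 523962) had 125.4, 149.8, 121.3, 174.6 and 149.4 CPM in Co replicates 1 to 5. The FeEV libraries held 121.6, 122.9, 125.4, 129.3 and 124.6 CPM, and the FoEV libraries 107.2, 113.5, 121.2, 110.2 and 110.4 CPM. The highest control library, replicate 4, stood well above every oEV library, and the FoEV libraries lay below all Co and all FeEV libraries. Mean levels were 144 ± 21.6 CPM without vesicles, 125 ± 2.95 CPM with FeEV and 112.5 ± 5.36 CPM with FoEV. The libraries of MAP3K1 did not overlap between FoEV and Co, and it was the only member of which this was true. Over all genes, 2.60% had no overlap between these treatments. The gap was only that between 121.2 and 121.3 CPM. It remained with the size factors of DESeq2 (120.9 against 121.9 CPM) and after removal of rRNA, small nucleolar and small nuclear RNA genes, but on raw library totals the ranges met, with the highest FoEV library at 120.3 CPM and the lowest Co library at 119.6 CPM.

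The log2 fold change of MAP3K1 in FoEV vs. Co was -0.36 (SE 0.09, 95% interval -0.55 to -0.16), and its adjusted p in edgeR's quasi-likelihood test was 0.118. Among the 10832 genes it ranked 85 by p-value in this comparison. The likelihood ratio test on robust dispersions, which the study's methods name, gave an adjusted p of 0.0361, and the Wald test of DESeq2 gave 0.0218. The fold change was negative with an unadjusted p under 0.05 in 25 of 25 alternative settings. It was smallest, -0.28 with an edgeR adjusted p of 0.326, without Co replicate 4, the highest control library.

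Compared with Co, FeEV-treated embryos had a log2 fold change of MAP3K1 of -0.21 (SE 0.09, 95% interval -0.40 to -0.01), and its edgeR adjusted p was 1.00. It was the only one of the 10 members with an unadjusted p under 0.05 in this comparison, and it kept that p-value in 15 of 25 alternative settings. Without Co replicate 4 the value was -0.13. Over all genes, 4.15% had such a p-value and 2.32% had it in the lower direction. The FeEV range of 121.6 to 129.3 CPM lay inside the Co range. For FoEV vs. FeEV it was -0.15 (SE 0.09, 95% interval -0.34 to 0.05), with an edgeR adjusted p of 0.658. The FoEV and FeEV libraries of MAP3K1 did not overlap (121.2 against 121.6 CPM), which held for 1 of the 10 members and for 1.50% of all genes. They met on raw library totals, at 120.3 CPM in FoEV and 116.4 CPM in FeEV. FoEV vs. Co and FeEV vs. Co share their control libraries, so the values of both comparisons are not independent.

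MAP3K4 (gene 511779), the other MAP3K, had 96.3, 90.1, 96.1, 107.2 and 98.5 CPM in Co. It had 94.5, 98.4, 109.5, 91.1 and 93.6 CPM in FeEV and 98.2, 91.8, 109.4, 79.8 and 96.2 CPM in FoEV. The 3 ranges lay over each other, and the treatment means differed by less than the SD of any treatment. Its log2 fold change was -0.04 (95% interval -0.23 to 0.16) in FoEV vs. Co and -0.0014 (-0.20 to 0.19) in FeEV vs. Co, with edgeR adjusted p-values of 0.885 and 1.00. The number of MAP3K1 reads per MAP3K4 read, which does not depend on library scaling, averaged 1.47 ± 0.18 (Co), 1.29 ± 0.10 (FeEV) and 1.19 ± 0.12 (FoEV). It ran from 1.26 to 1.66 in Co and from 1.09 to 1.38 in FoEV, so that these ranges overlapped.

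Of the MAP2K tier, the genes for the middle kinases, no member had an unadjusted p under 0.05 in any comparison. MAP2K4 (gene 526469), which can activate both arms, had 109.7, 102.6, 101.9, 121.6 and 109.2 CPM in Co, 96.3, 107.3, 90.7, 102.0 and 96.7 CPM in FeEV, and 93.8, 122.1, 115.7, 107.8 and 102.2 CPM in FoEV. The Co and FoEV ranges largely coincided, and the FeEV libraries lay toward the lower end. Its log2 fold change was -0.01 (SE 0.09, 95% interval -0.20 to 0.18) in FoEV vs. Co and -0.15 (SE 0.09, 95% interval -0.34 to 0.05) in FeEV vs. Co. MAP3K1 had 1.32 ± 0.14 reads per MAP2K4 read in Co, 1.27 ± 0.08 in FeEV and 1.04 ± 0.08 in FoEV. The highest FoEV ratio and the lowest Co ratio were both 1.14.

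MAP2K3 (gene 516039), the activator of p38, had 33.2, 23.6, 26.4, 35.3 and 27.5 CPM in Co. In FeEV it had 20.9, 21.2, 27.5, 31.0 and 26.3 CPM and in FoEV 31.3, 30.02, 28.7, 27.0 and 32.2 CPM. The FoEV libraries were close together inside the Co range, and the lowest values of all belonged to FeEV. The largest difference was between the oEV treatments, with a log2 fold change of 0.24 (SE 0.14, 95% interval -0.05 to 0.53) in FoEV vs. FeEV and an edgeR adjusted p of 0.626. In FoEV vs. Co it was 0.04 (95% interval -0.25 to 0.32).

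MAP2K7 (gene 787278), the activator of JNK, was counted least, with 15.7, 15.9, 12.9, 17.7 and 14.8 CPM in Co and 15.5, 15.6, 14.7, 16.9 and 13.7 CPM in FeEV. In FoEV it had 19.0, 17.7, 18.5, 22.7 and 12.8 CPM. Replicate 5 held the lowest FoEV value, below every Co library, while the other 4 FoEV libraries were level with or above the highest Co library. MAP2K7 had a log2 fold change in FoEV vs. Co of 0.24 (SE 0.16, 95% interval -0.09 to 0.56) with an edgeR adjusted p of 0.488.

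**Figure D2:**
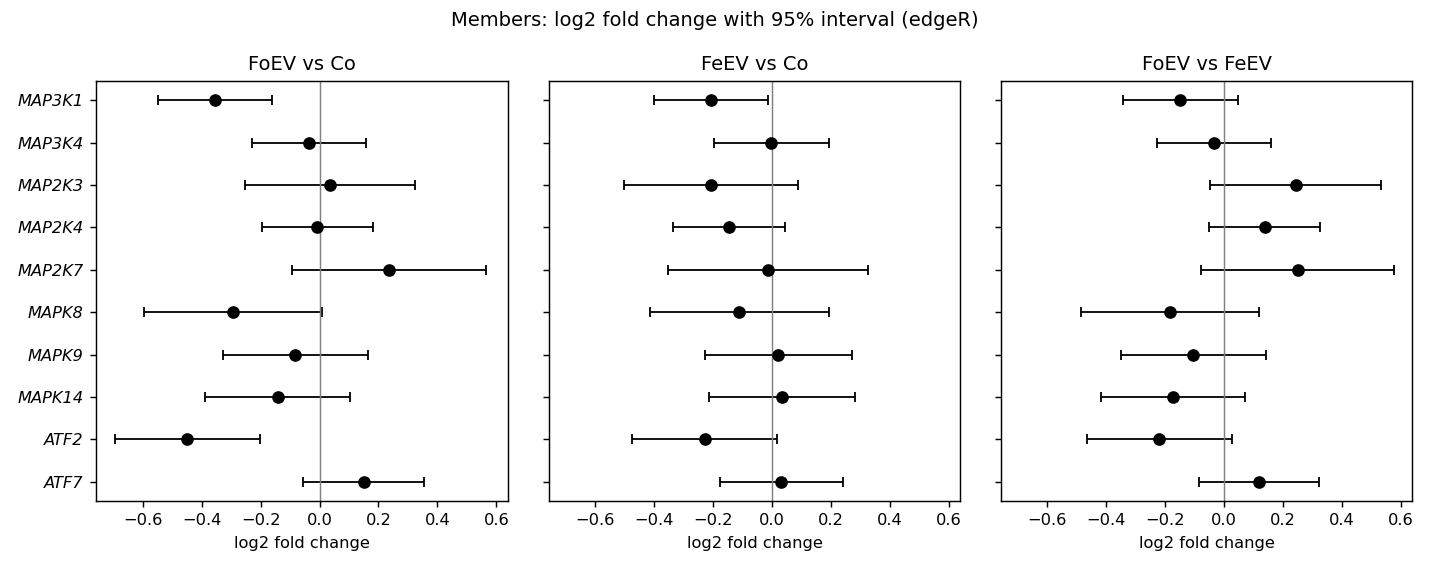
Log2 fold change of each member in FoEV vs. Co, FeEV vs. Co and FoEV vs. FeEV from the edgeR fit over all 15 libraries; points are estimates and bars 95% intervals, unadjusted for the number of genes. In FoEV vs. Co the intervals of MAP3K1 (-0.55 to -0.16) and ATF2 (-0.69 to -0.20) lie below 0, in FeEV vs. Co only that of MAP3K1 does, and in FoEV vs. FeEV all 10 include 0.

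All 3 MAP kinases had lower estimates in FoEV than in Co, and none passed the test. MAPK8 (gene 539941), which encodes JNK1, had 53.2, 71.5, 62.6, 71.8 and 47.6 CPM in Co, 53.0, 73.2, 55.1, 66.9 and 38.3 CPM in FeEV, and 46.3, 53.0, 50.4, 53.4 and 47.7 CPM in FoEV. The FoEV libraries clustered at the low end of the wide Co range, and the FeEV libraries spanned the widest range. For FoEV vs. Co the log2 fold change of MAPK8 was -0.29 (SE 0.15, 95% interval -0.59 to 0.01), with an edgeR adjusted p of 0.347. Its coefficient of variation over libraries was 6.26% with FoEV, against 17.7% (Co) and 23.6% (FeEV).

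MAPK9 (gene 534125), which encodes JNK2, had 40.1, 47.9, 43.5, 48.6 and 48.4 CPM in Co. It had 38.7, 60.5, 44.1, 40.5 and 48.0 CPM in FeEV and 44.7, 45.2, 38.8, 42.4 and 44.4 CPM in FoEV. FeEV replicate 2 was the highest library, and the 3 ranges otherwise coincided. MAPK9 had log2 fold changes of -0.08 (SE 0.12, 95% interval -0.33 to 0.16) in FoEV vs. Co and of 0.02 (95% interval -0.23 to 0.27) in FeEV vs. Co. MAPK8 had 1.34 ± 0.21 (Co), 1.25 ± 0.31 (FeEV) and 1.17 ± 0.11 (FoEV) reads per MAPK9 read, differences smaller than the SD in Co.

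MAPK14 (gene 534492), which encodes the alpha form of p38, had 44.1, 38.8, 38.1, 47.4 and 43.5 CPM in Co, 39.9, 36.0, 44.4, 44.2 and 51.4 CPM in FeEV, and 37.97, 37.8, 36.1, 33.7 and 45.8 CPM in FoEV. In FoEV, 4 of the 5 libraries lay below the lowest Co library, and replicate 5 lay near the top of the Co range. Estimated log2 fold changes were -0.14 (SE 0.12, 95% interval -0.39 to 0.10) in FoEV vs. Co and -0.17 (SE 0.12, 95% interval -0.42 to 0.07) in FoEV vs. FeEV, with edgeR adjusted p-values of 0.594 and 0.676.

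At the end of the cascade, ATF2 (gene 509827) had 76.6, 83.0, 68.4, 79.1 and 71.8 CPM in Co. The FeEV libraries held 63.2, 72.8, 76.9, 55.1 and 55.0 CPM and the FoEV libraries 53.7, 55.0, 52.6, 69.8 and 47.2 CPM. FoEV replicate 4 reached into the Co range, just above Co replicate 3, whereas the other 4 FoEV libraries lay below every Co library. FeEV libraries fell on both sides, 2 of them inside the Co range and 3 below it. Mean levels were 75.8 ± 5.79 CPM without vesicles, 64.6 ± 10.04 CPM with FeEV and 55.7 ± 8.44 CPM with FoEV. On raw library totals the FoEV and Co libraries of ATF2 did not overlap, at most 62.2 CPM in FoEV and at least 63.5 CPM in Co. No share over all genes was computed on raw totals. With TMM, with the size factors of DESeq2 and without rRNA, small nucleolar and small nuclear RNA genes, the ATF2 libraries overlapped.

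The log2 fold change of ATF2 in FoEV vs. Co was -0.45 (SE 0.12, 95% interval -0.69 to -0.20), its edgeR adjusted p was 0.118, and it ranked 88 of the 10832 genes by p-value. The adjusted p was 0.0110 in the likelihood ratio test on robust dispersions, 0.0332 in DESeq2 and 0.0364 in edgeR without a filter on low counts. The unadjusted p stayed under 0.05 in 25 of 25 alternative settings, with log2 fold changes between -0.54, without FoEV replicate 4, and -0.39, with the library numbers of the sample descriptions as a block. FeEV vs. Co gave a log2 fold change of -0.23 (SE 0.12, 95% interval -0.47 to 0.02) and FoEV vs. FeEV one of -0.22 (SE 0.12, 95% interval -0.47 to 0.03), with edgeR adjusted p-values of 1.00 and 0.604. The FeEV mean thus lay between the others, and it was not separated from either by this test.

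ATF7 (gene 541204), the relative of ATF2, had 62.7, 53.0, 69.7, 58.2 and 62.4 CPM in Co, 64.7, 61.6, 54.7, 59.7 and 71.8 CPM in FeEV, and 67.6, 71.4, 65.6, 70.4 and 64.6 CPM in FoEV. The FoEV libraries lay in the upper part of the Co range or above it. ATF7 had a log2 fold change of 0.15 (SE 0.10, 95% interval -0.05 to 0.35) in FoEV vs. Co, with an edgeR adjusted p of 0.477, and 0.03 (95% interval -0.18 to 0.24) in FeEV vs. Co.

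Because the estimates of ATF2 and ATF7 had opposite signs, their reads were also set against each other within each library, a ratio free of library scaling. In Co the ATF2 reads per ATF7 read were 1.22, 1.57, 0.981, 1.36 and 1.15, in FeEV 0.977, 1.18, 1.41, 0.924 and 0.767, and in FoEV 0.794, 0.770, 0.802, 0.990 and 0.730. Since the ratio also depends on the lengths of both transcripts, it is compared between libraries and not with 1. The mean ratio was 1.26 ± 0.22 without vesicles, 1.05 ± 0.25 with FeEV and 0.818 ± 0.10 with FoEV. FoEV replicate 4, at 0.990, lay just above Co replicate 3, at 0.981, so the ranges of FoEV and Co touched. This pair was compared after its values had been seen, and the ratio is given without a test.

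**Figure D3:**
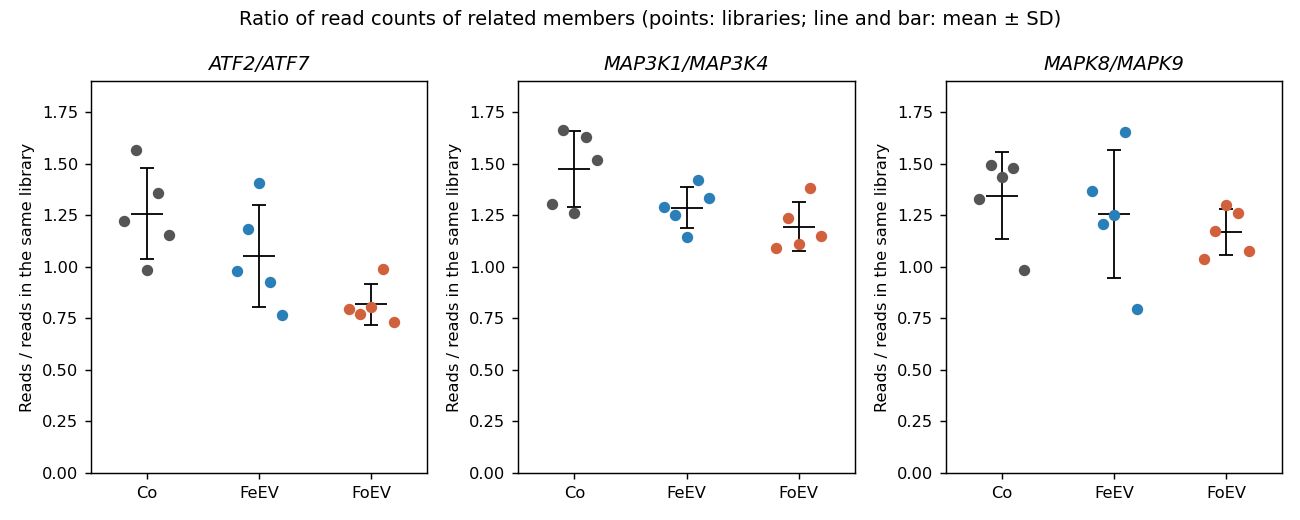
Number of reads of one member per read of a related member in the same library, for ATF2 over ATF7, MAP3K1 over MAP3K4 and MAPK8 over MAPK9; points are libraries, and line and bar the mean and SD of 5. The mean ATF2 over ATF7 ratio is 1.26 in Co and 0.818 in FoEV, and the highest FoEV library (0.990) lies just above the lowest Co library (0.981).

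With FeEV the estimates of the members ran from 85.4% (ATF2) to 102% (MAPK14) of the control level. Of the 10 members 7 were lower and 3 higher, with a median log2 fold change of -0.06 against 0.00 over all genes and a range from -0.23 (ATF2) to 0.03 (MAPK14). In FoEV vs. FeEV, 0 of the 10 members had an unadjusted p under 0.05, compared with 8.52% of all genes, and edgeR adjusted p-values ran from 0.604 to 0.931. There the 3 MAP2K genes were higher in FoEV, with log2 fold changes from 0.14 to 0.25, and the 3 MAP kinase genes lower, from -0.18 to -0.10, all with intervals that included 0.

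The genes around the cascade were taken from a list of 81 activators, scaffolds, phosphatases and substrates of the JNK and p38 arms, of which 68 were in the filtered table. In FoEV vs. Co, 8 of the 68 were higher and 9 lower with an unadjusted p under 0.05, or 25.0% of the list, where 15.1% of all genes had such a p-value (8.18% higher and 6.88% lower). None had an adjusted p under 0.05 in edgeR's quasi-likelihood test on the filtered table, and the median log2 fold change was -0.03. By the same criterion 0 were higher and 7 lower in FeEV vs. Co (10.3% of the list, against 4.15% of all genes), and 4 were higher and 5 lower in FoEV vs. FeEV (13.2%, against 8.52%).

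Among the 19 measured upstream kinases, 1 was higher and 2 lower in FoEV vs. Co with an unadjusted p under 0.05, or 15.8% of them, close to the 15.1% of all genes. TAOK1, a MAP3K of the p38 arm, averaged 234 CPM in FoEV and 289 CPM in Co (log2 fold change -0.30, SE 0.10, edgeR adjusted p = 0.159). MINK1, a MAP4K-family kinase, averaged 82.2 and 63.3 CPM (log2 fold change 0.37, SE 0.13, edgeR adjusted p = 0.192). Its FoEV mean contains replicate 4 at 115.9 CPM, without which the log2 fold change was 0.22. MAP4K4, of the same family, had a log2 fold change of -0.27 in FoEV vs. Co. In FeEV vs. Co 9 of the 19 had higher and 10 lower estimates, and 4 of the lower ones had an unadjusted p under 0.05, where 4.15% of all genes had such a p-value and 2.32% had it in the lower direction. They were MAP4K4 (log2 fold change -0.32), TNIK (-0.33), MAP3K5 (-0.44) and MAP3K13 (-0.63), and they kept that p-value in 24, 20, 20 and 21 of 25 alternative settings. Without Co replicate 3 the value of MAP3K13 was -0.42. MAP3K5, also called ASK1, is a MAP3K that responds to oxidative stress. MAP4K2, another kinase of this tier, had a log2 fold change of 0.52 in FoEV vs. FeEV.

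Of the 10 receptor adaptors and small GTPases, RIPK1 was higher (log2 fold change 0.31) and CDC42 (-0.21) and PAK2 (-0.24) lower in FoEV vs. Co with an unadjusted p under 0.05. They made up 30.0% of this role, against 15.1% of all genes. TRAF2, the adaptor that couples tumour necrosis factor receptors to MAP3K1, averaged 16.1 CPM in Co, 11.5 CPM in FeEV and 13.5 CPM in FoEV. Its log2 fold change in FeEV vs. Co was -0.46 (SE 0.17, edgeR adjusted p = 1.00), and its FeEV libraries, from 8.65 to 14.7 CPM, lay below all Co libraries, from 15.5 to 17.5 CPM. In this comparison, 58 of all 10832 genes lay higher and 45 lower in FeEV without overlap. The FoEV libraries of TRAF2, from 12.4 to 15.05 CPM, also lay below all Co libraries. In FoEV vs. Co, 2.60% of all genes had no overlap. Among the 6 scaffolds, which hold the kinases of the JNK arm together, 5 had higher and 1 lower estimates in FoEV vs. Co, and 2 of the higher ones had an unadjusted p under 0.05. That was 33.3% of the scaffolds, where 15.1% of all genes had such a p-value in either direction. MAPK8IP1 (JIP1) averaged 29.4 CPM in FoEV, 22.5 CPM in FeEV and 22.6 CPM in Co, with log2 fold changes of 0.38 (SE 0.14) against both. Its FoEV libraries (26.0 to 32.2 CPM) lay above all FeEV libraries (19.3 to 25.3 CPM) but overlapped the Co libraries (18.2 to 27.9 CPM). In FoEV vs. FeEV, 1.50% of all genes had no overlap. MAPK8IP2 (JIP2) had a log2 fold change of 0.44 (SE 0.18, edgeR adjusted p = 0.237) in FoEV vs. Co.

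Among the 10 phosphatases and GADD45 regulators, which act against the kinases or bind MAP3K4, PPM1B alone had an unadjusted p under 0.05. It averaged 79.7 CPM in FoEV, 99.4 CPM in FeEV and 99.0 CPM in Co, a log2 fold change of -0.31 (SE 0.11, edgeR adjusted p = 0.192) in FoEV vs. Co and of -0.32 (SE 0.11, adjusted p = 0.496) in FoEV vs. FeEV. Of the 6 kinases that p38 activates, MAPKAPK3 had a log2 fold change of 0.50 (SE 0.20, edgeR adjusted p = 0.237) in FoEV vs. Co, the highest of the list in this comparison. The other 5 had an unadjusted p of 0.05 or more.

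Of 16 transcription factors and other substrates of the arms, 6 had higher and 10 lower estimates in FoEV vs. Co. Of these, 3 and 4 had an unadjusted p under 0.05, or 43.8% of the 16. Over all genes, the share was 15.1% (8.18% higher and 6.88% lower). The list was chosen with earlier results of these data known, and the study had selected FOS and MEF2A from these libraries, so the shares are descriptive. MEF2A, a factor activated by p38, had the smallest p of the list, with 36.9 ± 3.02 CPM in FoEV, 43.9 ± 3.93 CPM in FeEV and 48.3 ± 4.27 CPM in Co. Its FoEV libraries (32.1 to 39.8 CPM) lay below all Co libraries (41.5 to 53.0 CPM) and all FeEV libraries (40.8 to 50.5 CPM). Over all genes, 2.60% had no overlap in FoEV vs. Co and 1.50% in FoEV vs. FeEV. MEF2A had a log2 fold change in FoEV vs. Co of -0.39 (SE 0.11) with an edgeR adjusted p of 0.127, and 0.0264 in the likelihood ratio test on robust dispersions and 0.0479 in DESeq2. ITCH, a ubiquitin ligase activated by JNK, had a log2 fold change of -0.34 (SE 0.10, edgeR adjusted p = 0.140), and its adjusted p was 0.0455 in the robust test and 0.0491 in DESeq2. BCL2L11, the pro-apoptotic factor BIM, had one of -0.41 (SE 0.16, edgeR adjusted p = 0.230). ELK4, a partner of the serum response factor, had 0.46 (SE 0.19, edgeR adjusted p = 0.257), and the stress response factor ATF4 had 0.32 (SE 0.15, adjusted p = 0.324). In FoEV vs. FeEV, 2 of the 16 were higher and 3 lower with an unadjusted p under 0.05 (31.25%, against 8.52% of all genes). The lower ones were ITCH (log2 fold change -0.30), MEF2A (-0.24) and BCL2L11 (-0.33), the higher ones MAX (0.33) and JUND (0.43). TAOK1, of the upstream kinases, had -0.20 in this comparison, also with an unadjusted p under 0.05.

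The AP-1 genes, whose products pair with ATF2, did not share a direction in FoEV vs. Co. In FeEV vs. Co the means of FOS, JUNB, JUN and JUND were all lower, that of JUND only slightly. FOS averaged 49.4 ± 14.9 CPM in Co, 28.5 ± 8.06 CPM in FeEV and 31.9 ± 8.61 CPM in FoEV, with log2 fold changes of -0.79 (SE 0.24) in FeEV vs. Co and -0.62 (SE 0.24) in FoEV vs. Co, both with an unadjusted p under 0.05. JUNB had a log2 fold change of -0.60 (SE 0.20) in FeEV vs. Co. JUN averaged 54.8 ± 16.4 CPM in Co, 45.2 ± 9.66 CPM in FeEV and 44.5 ± 4.46 CPM in FoEV, with edgeR adjusted p-values of 1.00 for FeEV and 0.420 for FoEV vs. Co. JUND had higher values with frozen vesicles, 45.8 ± 5.16 CPM in FoEV against 34.0 ± 2.38 CPM in FeEV and 34.9 ± 11.3 CPM in Co. Its FoEV libraries lay above all FeEV libraries, where 1.50% of all genes had no overlap. JUND had log2 fold changes of 0.43 (SE 0.16) in FoEV vs. FeEV and 0.39 (SE 0.16) in FoEV vs. Co. In edgeR's quasi-likelihood test on the filtered table, the adjusted p-values of these AP-1 genes lay between 0.230 and 1.00. For FOS in FoEV vs. Co the adjusted p was 0.00876 in edgeR with no filter, 0.0202 in the robust test and 0.124 in DESeq2. In FeEV vs. Co these tests gave FOS adjusted p-values of 0.00170, 0.0650 and 0.568.

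**Figure D4:**
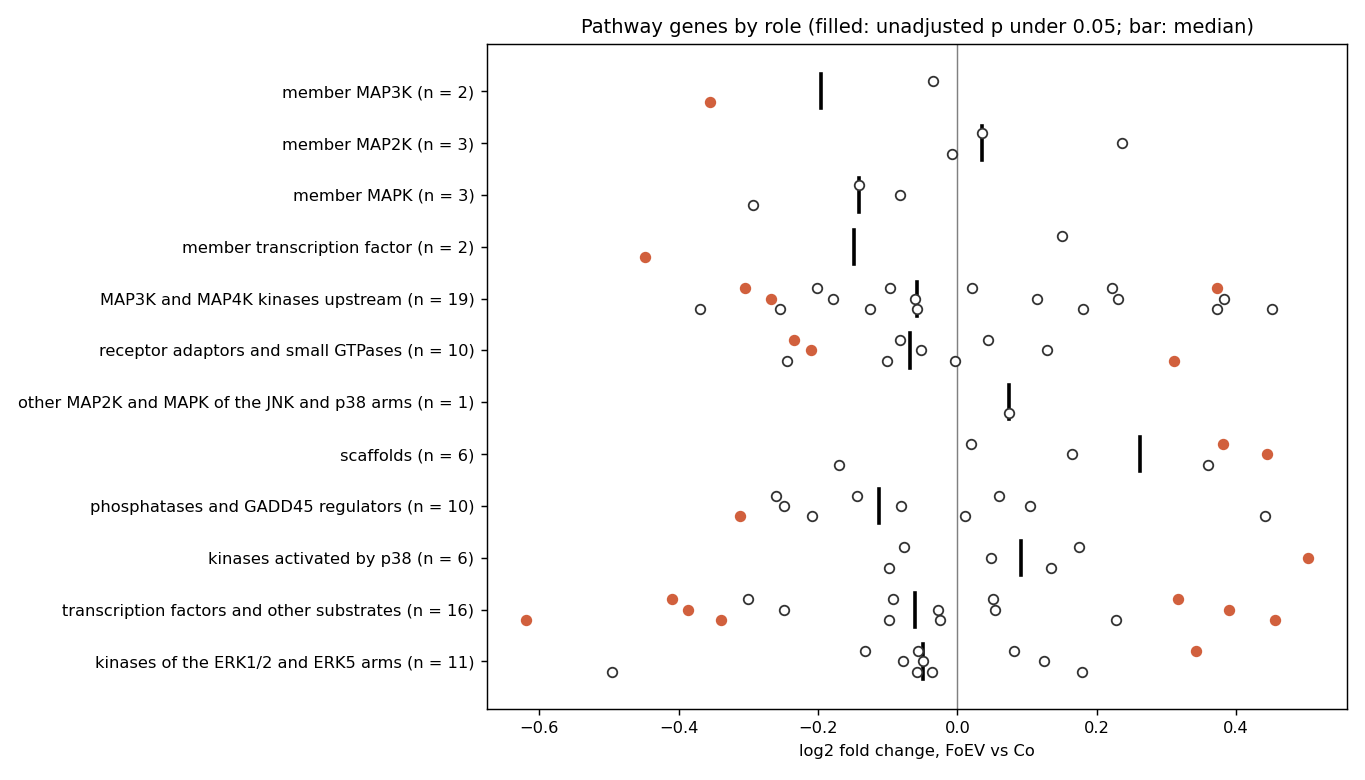
Log2 fold change in FoEV vs. Co of the 10 members by tier, of 68 further genes of the JNK and p38 arms by role and of 11 kinases of the ERK arms; each point is a gene, filled where its unadjusted p is under 0.05, and the bar is the median of the role. Genes of most surrounding roles lie on both sides of 0, and 5 of 6 scaffolds lie above it.

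Several relatives of the members were at or near the detection limit. MAP2K6, the other activator of p38, had 0 to 3 reads per library, MAPK10 (JNK3) 0 to 9, MAPK11 (p38 beta) 1 to 7 and MAPK12 (p38 gamma) 3 to 19, and none was in the filtered table. MAPK13 (p38 delta) was in it, with 16 to 41 reads per library and means of 8.74 ± 3.07 CPM in Co, 8.37 ± 1.203 CPM in FeEV and 9.27 ± 3.11 CPM in FoEV. Of the 11 kinases of the ERK1/2 and ERK5 arms, the MAP kinase branches that growth factors activate, ARAF alone had an unadjusted p under 0.05, with a log2 fold change of 0.34 (SE 0.13, edgeR adjusted p = 0.230) in FoEV vs. Co. This was 9.09% of the 11, below the 15.1% of all genes.

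Markers of the blastocyst's own cell types were read in the same libraries. Of 10 trophectoderm markers 9 were higher in FoEV than in Co, 4 of them with an unadjusted p under 0.05 (GATA2, GATA3, KRT8 and KRT18). Over all genes, 5665 of 10832 were higher in this comparison, and 8.18% were higher with such a p-value. The summed level of the trophectoderm markers ran from 6850 to 9252 CPM in Co, 7528 to 11125 CPM in FeEV and 8796 to 11837 CPM in FoEV. This sum was set largely by KRT8 and KRT18. They had up to 25901 and 19811 reads in a FoEV library, against at most 2241 for DAB2, the next marker. KRT18 had a log2 fold change of 0.55 (SE 0.13) with an edgeR adjusted p of 0.0818. Of 7 markers of the inner cell mass in the filtered table, 4 were higher and 3 lower in FoEV than in Co (median log2 fold change 0.0044), and NANOG alone had an unadjusted p under 0.05 (log2 fold change -0.84, SE 0.26, edgeR adjusted p = 0.178). FGF4, below the filter, had at most 1 read in any Co library, 2 in any FeEV library and 0 in the FoEV libraries, too few to compare. The summed level of the 8 inner cell mass genes ran from 439.9 to 589.6 CPM in Co, 389.95 to 571.9 CPM in FeEV and 402 to 625 CPM in FoEV. Of 7 hypoblast markers in the filtered table, 5 were lower in FoEV, FN1 with an unadjusted p under 0.05 (log2 fold change -0.29). Their summed level, with that of the marker below the filter, ran from 6611 to 9179 CPM in Co, 5791 to 8204 CPM in FeEV and 4895 to 7606 CPM in FoEV. This sum was set largely by FN1, with up to 23498 reads in a Co library, against at most 1446 for GATA6, the next marker. NANOG and FN1 each made up 14.3% of their filtered list, near the 15.1% of all genes with such a p-value in either direction. In FeEV vs. Co, 8 trophectoderm markers were higher and 2 lower, where 5528 of 10832 genes were higher. Of the inner cell mass markers 2 were higher and 5 lower (median log2 fold change -0.25), and of the hypoblast markers 1 and 6. Among these, NANOG alone, again lower, had an unadjusted p under 0.05, or 14.3% of its list against 4.15% of all genes. The part of these markers in the lower levels of MAP3K1 and ATF2 was not tested. Of the cells that could be carried over, 8 cumulus and granulosa genes summed to 25.6 to 39.0 CPM in Co and 24.5 to 45.6 CPM in FoEV. The 8 oviduct genes summed to 34.4 to 239 CPM in Co and 65.8 to 153 CPM in FoEV. Among them the mucin gene MUC1 reached 603 reads in a Co library and 573 in a FoEV library, whereas OVGP1, the oviductal glycoprotein, had at most 3 and 6 reads. PTX3 was at 0 reads in the Co and FoEV libraries and INHA in the FeEV libraries.

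To see whether members varied together apart from the treatments, log2 CPM values were expressed as deviations from the mean of their treatment over the 15 libraries. Of the 45 pairs of members 4 had a permutation p under 0.05, and 0 remained after Benjamini-Hochberg adjustment over the pairs. The strongest relation was between MAP2K3 and MAPK14, the activator and the kinase of the p38 arm, with a Pearson r of 0.72 (permutation p = 0.00464, adjusted p = 0.209) and a Spearman rho of 0.76 (permutation p = 0.00366). Pearson's r was 0.77 without the 2 libraries farthest from the median of MAP2K3. The other pairs were MAP3K1 with MAP2K4 (r = 0.49), MAP2K7 with MAPK8 (r = 0.38) and MAP2K7 with ATF2 (r = 0.59), each with an adjusted permutation p of 0.529. Without the 2 libraries farthest from the median of the gene named first, r was 0.23, 0.50 and 0.24 for these pairs, so that the first and the last rested largely on those libraries. MAP3K1 and ATF2 correlated at r = 0.62 over the raw values of the 15 libraries, which include the treatment means, and at 0.11 in the deviations.

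**Figure D5:**
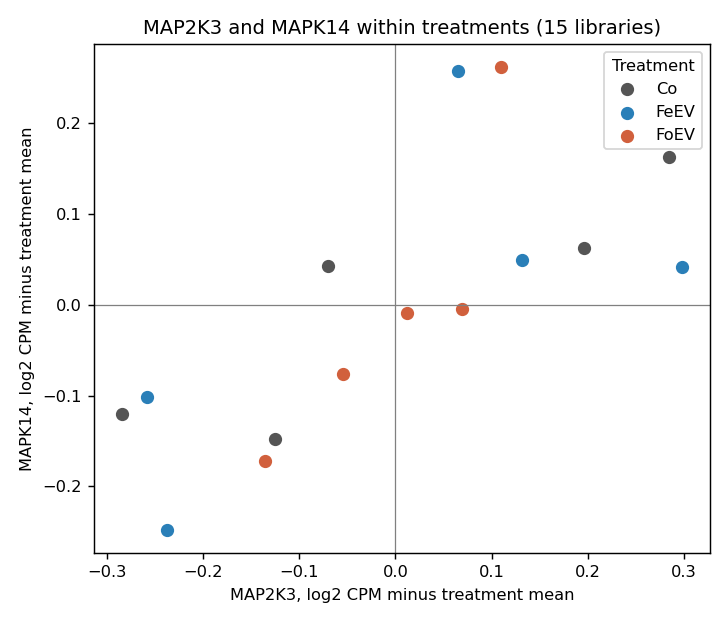
MAPK14 against MAP2K3 in each of the 15 libraries, both as log2 CPM minus the mean of the library's treatment, with libraries coloured by treatment. The points run from lower left to upper right (Pearson r = 0.72, adjusted permutation p = 0.209 over 45 pairs).

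Over the 15 libraries, the genes whose log2 CPM ran most like that of MAP3K1 included CBFA2T2 (r = 0.83, and 0.72 in deviations from the treatment means), POLD3 (0.83 and 0.70), NADK2 (0.82 and 0.65) and FLRT3 (0.82 and 0.66). POLD3 is a subunit of DNA polymerase delta. For ATF2 they were TRIM32 (0.88 and 0.75), ASXL2 (0.86 and 0.75), LOC530653 (0.82 and 0.76), VEZF1 (0.82 and 0.78) and PTPDC1 (0.77 and 0.59). These correlations describe points that share libraries, depth and treatments, and they carry no test. The closest genes of the pair did not coincide, and ATF2 ranked 277 in likeness to MAP3K1 and MAP3K1 ranked 91 in likeness to ATF2.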

How the data were processed

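RNA of 15 pools of blastocysts, 5 per treatment, was sequenced as single-end reads from a strand-selecting low-input kit. The submitters' processing notes list Trim Galore 0.4.3.1, HISAT2 2.1.0, featureCounts 1.6.3 and the bovine assembly ARS-UCD1.2, whereas the study's methods name QuasR for counting. The authors deposited raw read counts per NCBI gene, as an unfiltered table of 34773 genes and a table of 10832 genes filtered for low counts, which was tested here. Symbols for 10709 of the 10832 genes came from RefSeq. Treatments came from the sample labels.

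Counts were scaled by TMM and fitted in edgeR 4.0.16 (R 4.3.3, limma 3.58.1) with treatment as the sole term over all 15 libraries, which share 1 estimate of the spread (common biological coefficient of variation 0.159). Quasi-likelihood F tests were adjusted by Benjamini-Hochberg over all 10832 genes, and an adjusted p under 0.05 counted as passing. Correlations used log2 CPM with a prior count of 2 and 100000 permutations of the libraries within treatments. Alternatives included DESeq2 1.42.0, the likelihood ratio test that the study's methods name, other scalings and filters, and leaving out each library. Python 3.11.15, numpy 2.4.6, scipy 1.17.1, pandas 2.3.3 and matplotlib 3.10.9 were used for summaries and plots.

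The members and all gene lists were chosen with earlier results of these data known. All members were named. Of the surrounding list, the 12 genes with the smallest unadjusted p under 0.05 per comparison were named, with JUN, JUND, FOS, MAP2K6 and MAPK10 to MAPK13 whatever their p. MAP4K4, RIPK1, CDC42, PAK2 and ATF4 in FoEV vs. Co, some marker genes and the pairs of members in ratios were named after their values were seen. For MAP3K1 and ATF2 the 5 most correlated genes were chosen, of which 1 is not reported here. No transcript lengths were used, so levels were not compared between genes, and ratios of reads of 2 genes were compared only between libraries.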

Additional observations from a re-analysis of the deposited data

Results flagged for a closer look

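In 31 named genes, 93 treatment groups of 5 libraries were screened for a library far from the rest, by Dixon's criterion at the 95% level, and 3 met it, where chance alone gives about 4.65. None concerned a member of the cascade. The highest FoEV library of MINK1, replicate 4, had 115.9 CPM, with the next at 82.2 CPM. The lowest Co library of MAP4K4, replicate 3, had 46.1 CPM, with the next at 62.4 CPM, and without any one library the log2 fold change in FeEV vs. Co remained negative. The highest Co library of TRAF2, replicate 2, had 17.5 CPM, with the next at 16.1 CPM.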

How the results depend on the processing

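The number of genes passing in FoEV vs. Co depended most on the test. It was 1 in edgeR's quasi-likelihood test, 311 in the likelihood ratio test on robust dispersions, 138 in DESeq2, 173 with no filter, 5 with only the treatments compared and 0 to 58 with any 1 library left out (58 without FoEV replicate 2). In FeEV vs. Co it was 0, and 6, 1 and 13 in the robust test, in DESeq2 and with no filter, and 0 to 1 with a library left out. In FoEV vs. FeEV it was 0, and 31, 3 and 22, and 0 to 1. The cause of these differences was not tested. All these counts were computed here, and those of the robust test differ from the counts that the study reported. For FeEV vs. Co and FoEV vs. FeEV the study used a likelihood ratio cutoff in place of an adjusted p.

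The count of members with an unadjusted p under 0.05 in FoEV vs. Co was 2 or 3 in all alternatives, MAP3K1 and ATF2 in each, with MAPK8 as the third in 9 settings and MAP2K7 in 1. In FeEV vs. Co the count of 1 became 0 with no filter and in thinned counts, 2 with only the treatments compared, and 0 to 2 with a library left out. It was 0 without Co replicates 2, 4 or 5 or FeEV replicates 1 or 5. In FoEV vs. FeEV the count of 0 became 1 in the robust test and 0 to 2 with a library left out (2 without FeEV replicate 4 or 5, 1 without FoEV replicate 4 or 5). The counts of the surrounding list with a library left out ran from 10 (without Co replicate 4) to 19 in FoEV vs. Co, from 5 to 9 in FeEV vs. Co and from 5 (without FeEV or FoEV replicate 4) to 10 in FoEV vs. FeEV, and with no filter FeEV vs. Co had 11.

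The labels do not say whether the replicate numbers of the sample titles or the library numbers of the sample descriptions pair the libraries, and this was not settled here. The study states that fresh and frozen vesicles came from the same oviducts and were split between these treatments. Deviations with the same title number correlated between -0.29 and 0.35 in FoEV vs. Co, -0.21 and 0.42 in FeEV vs. Co and 0.01 and 0.44 in FoEV vs. FeEV. A library's best match had its own title number in 2 of 10 checks in FoEV vs. Co. In FeEV vs. Co it was 5 of 10, and in FoEV vs. FeEV 4 of 10. With the same description number, r ran from -0.11 to 0.34 in FoEV vs. Co and 0.06 to 0.16 in FeEV vs. Co. In FoEV vs. FeEV it ran from -0.20 to 0.44. Best matches had their own description number in 2 of 6, 1 of 6 and 2 of 8 checks. With a replicate block, 57 genes passed in FoEV vs. Co, and MAP3K1 and ATF2 had adjusted p-values of 0.0756 and 0.0652. With the library number of the sample descriptions as a block, 12 genes passed in FoEV vs. Co and 1 in FoEV vs. FeEV, where the surrounding list had 4.

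Among members close to 0 the sign varied. MAP3K4 in FeEV vs. Co had log2 fold changes of 0.0018 with no filter and 8.3e-05 in the robust test, and MAPK9 had -0.024 in the robust test. With the description number as a block, MAP2K4 in FoEV vs. Co had 0.0073 and, in FeEV vs. Co, MAP2K7 had 0.11, MAPK9 -0.12 and MAPK14 -0.017. With any 1 library left out, FoEV vs. Co ran from -0.098 to 0.019 for MAP3K4, -0.033 to 0.11 for MAP2K3 and -0.055 to 0.041 for MAP2K4. FeEV vs. Co ran from -0.047 to 0.034 for MAP3K4, -0.072 to 0.040 for MAP2K7, -0.21 to 0.0091 for MAPK8, -0.089 to 0.082 for MAPK9, -0.041 to 0.091 for MAPK14 and -0.024 to 0.085 for ATF7. FoEV vs. FeEV ran from -0.093 to 0.021 for MAP3K4 and -0.16 to 0.0064 for MAPK9. The members had 36 to 484 reads per library, and the part of counting error and of the spread between pools in these values was not separated.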
